A study of Mus musculus with 21 samples.

Results

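The CHZ868 washout experiment set 3 CHZ868-wash libraries against 3 DMSO-wash libraries, 6 of the 21 RNA-seq libraries of the series, over the 11355 genes of their table. The libraries were chosen by their labels, and no measured value entered the choice. The cells were Ba/F3 JAK2-V617F. Ba/F3 is a mouse pro-B line that depends on interleukin-3. The cells used here stably express the mutant kinase, which the paper reports to free their growth from that cytokine. CHZ868-wash cells received 1 μM CHZ868 for 1 h, were rinsed 3 times in PBS, and then spent 6 h in medium free of inhibitor. The study's methods spell these steps out for the ruxolitinib washout. DMSO-wash cells received DMSO in place of the inhibitor. The comparison asks which transcripts differ after a type II JAK2 inhibitor has been taken away, where the series also holds the same step for the type I inhibitor ruxolitinib. Further groups of 3 libraries, used below only for values side by side, were CHZ868-treated and DMSO-treated cells after 6 h of continuous exposure, and ruxo-wash cells with DMSO-wash libraries of their own.

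JAK2 is a tyrosine kinase bound to cytokine receptors that phosphorylates STAT5, which then enters the nucleus and switches on genes such as Cish, the Socs genes and Pim1. The V617F change in its pseudokinase domain keeps the kinase active without cytokine. CHZ868 belongs to the type II inhibitors, which need the inactive kinase shape to bind, and ruxolitinib to the type I inhibitors, which do not.

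The libraries held 8151737, 9094822 and 8889265 reads on listed genes for CHZ868-wash replicates 1 to 3, and 9877533, 9336200 and 8741411 for DMSO-wash replicates 1 to 3. DMSO-wash replicate 3 stood apart from the other 5 libraries. On the first principal component, which held 50% of the variance, it scored 33.6, against 9.1 and -1.0 for DMSO-wash replicates 1 and 2 and -13.7, -14.4 and -13.6 for the CHZ868-wash libraries. Reads on the mitochondrial genome made up 5.35% of this library, 2.85% and 2.28% of the other DMSO-wash libraries, and 2.14%, 1.77% and 1.88% of the CHZ868-wash libraries. The labels do not say whether replicates were separate cultures, so the p-values measure the spread between these samples, which may be technical. In bulk RNA, fewer cells expressing a gene and less RNA per cell cannot be told apart.

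After the washout, 222 genes (1.96%) were higher and 235 (2.07%) lower in CHZ868-wash than in DMSO-wash cells (457 of 11355 genes, 4.02%; limma-trend, Benjamini-Hochberg adjusted p under 0.05). The differences were small. Their median size was 0.52 on the log2 scale and the smallest was 0.32, while the median difference of all genes was 0.01. In 174 of the 457 genes the difference was at least 0.58 in size, 78 of them higher and 96 lower. By the longest annotated transcript, 320 of the 457 were protein coding. The smallest Benjamini-Hochberg adjusted p of limma-trend was 0.0112, and no gene passed 0.01 where 2767 had an unadjusted p under 0.05. The count moved with single libraries. There were 0 calls without CHZ868-wash replicate 1 or 3 or DMSO-wash replicate 1 (2137, 1940 and 2059 at an unadjusted p under 0.05 in limma-trend), and 1, Cebpb, without CHZ868-wash replicate 2. Without DMSO-wash replicate 3, 1426 genes passed (12.6%; 759 higher, 6.68%, and 667 lower, 5.87%), the 457 among them, and without DMSO-wash replicate 2, 1298 passed. A correction for GC content and transcript length, chosen after seeing the data and described below, left 19 calls.

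The largest fall in an annotated protein-coding gene of the nucleus was that of Cebpb, a bZIP transcription factor of myeloid differentiation and inflammatory genes. Its level was 3.48, 3.93 and 3.53 log2 CPM in CHZ868-wash replicates 1 to 3 and 4.94, 5.28 and 4.98 log2 CPM in DMSO-wash replicates 1 to 3. Every CHZ868-wash library was lower than every DMSO-wash library. The difference was -1.42 ± 0.16 (SE, n = 3 libraries per group; limma-trend, Benjamini-Hochberg adjusted p = 0.0117), and it ran from -1.56 to -1.31 when each library was left out in turn. Zfpm1, the GATA cofactor FOG1, stood at 8.80, 8.84 and 8.88 log2 CPM in CHZ868-wash and 9.53, 9.36 and 9.59 log2 CPM in DMSO-wash libraries, a fall of 0.65 on the log2 scale: -0.65 ± 0.09 (SE; limma-trend, Benjamini-Hochberg adjusted p = 0.0148). The groups were separate, and the CHZ868-wash libraries were the closer together. Jund, a subunit of AP-1, stood at 5.72, 5.79 and 5.88 log2 CPM in CHZ868-wash and 6.44, 6.63 and 6.43 log2 CPM in DMSO-wash libraries. Its groups did not overlap either, at a difference of -0.70 ± 0.10 (SE; limma-trend, Benjamini-Hochberg adjusted p = 0.0179). Corrected for GC content and transcript length, Cebpb was -1.12 and passed, while Zfpm1 was -0.32 and Jund -0.39 and neither passed (limma-trend, Benjamini-Hochberg adjusted p = 0.0995 and 0.0655).

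Among the 15 largest falls, Reep6, which shapes endoplasmic reticulum tubules, differed by -0.98, Selplg, the P-selectin ligand of leukocytes, by -0.95 and the SLC26 family member Slc26a10 by -0.93. Reep6 was 5.31, 5.44 and 5.30 log2 CPM in CHZ868-wash and 6.04, 5.90 and 7.06 log2 CPM in DMSO-wash libraries, so that DMSO-wash replicate 3 held the highest value by far. Left out, that library brought the Reep6 difference to -0.62. The 4 further falls among these 15 in transcripts without a known protein product were Gm44672 (-1.20), Gm9502 (-1.53), 2510046G10Rik (-0.98) and Gm47009 (-0.92), each with exons that overlap a gene on the other strand (Sec23ip, Mapk1ip1l, Sgf29 and Irak3). Gm20490 (-1.17) shares sequence with Rbm38, itself at -0.73 (limma-trend, Benjamini-Hochberg adjusted p = 0.0323).

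Pseudogenes made up the top of the falls, and their reads may be shared with the parent gene. Gm13341, a nuclear copy of mt-Co2 at 95.9% identity, stood at 0.62, 1.19 and 1.78 log2 CPM in CHZ868-wash and 3.01, 2.62 and 4.74 log2 CPM in DMSO-wash libraries. Its difference was -2.26 ± 0.49 (SE; limma-trend, Benjamini-Hochberg adjusted p = 0.0409), and -1.62 without DMSO-wash replicate 3, its highest library. Gm3226, a copy of the tubulin gene Tuba1b at 98.7% identity, differed by -1.60 (-1.14 without DMSO-wash replicate 3), while Tuba1b differed by 0.58 in the other direction without passing the test (limma-trend, Benjamini-Hochberg adjusted p = 0.0972). Ybx1-ps2, a processed pseudogene of the RNA-binding protein gene Ybx1, differed by -1.27.

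Of the rises, Mettl5, the methyltransferase that modifies an adenosine of 18S ribosomal RNA, had one of the lowest p-values in the table. It stood at 6.15, 6.00 and 5.91 log2 CPM in CHZ868-wash and 4.60, 4.99 and 4.41 log2 CPM in DMSO-wash libraries. All 3 CHZ868-wash libraries were above all DMSO-wash libraries, and the difference was 1.36 ± 0.15 (SE; limma-trend, Benjamini-Hochberg adjusted p = 0.0112). Its exons overlap Ssb on the other strand and Gm13625 on the same strand. Tmsb4x, thymosin beta 4, which binds monomeric actin, stood at 9.66, 9.81 and 9.72 log2 CPM in CHZ868-wash and 8.86, 9.08 and 8.79 log2 CPM in DMSO-wash libraries. The groups were again separate, and the difference was 0.82 ± 0.10 (SE; limma-trend, Benjamini-Hochberg adjusted p = 0.0119).

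Rpl22l1, a paralog of the ribosomal protein gene Rpl22, and the antisense transcript Gm33051 rose by 1.26 and 1.53. Gm33051 was 6.57, 6.58 and 6.46 log2 CPM in CHZ868-wash and 4.77, 5.45 and 4.78 log2 CPM in DMSO-wash libraries. Over 59% of its length it is identical to Rpl22l1, and whether counting used the strand is not given in the sources used here, so the reads of this pair may not be separable. Cav2, a caveolin of membrane invaginations, rose by 1.21, S100a6, a calcium-binding protein, by 1.06, Tmem14c, a mitochondrial protein needed for heme synthesis, by 0.99, Gimap5, a lymphocyte survival GTPase, by 1.00, and Ier3ip1, an endoplasmic reticulum protein, by 0.96. The rise of Tmem14c was 0.70 without DMSO-wash replicate 3. Also among the 15 largest rises were the small nuclear RNA Gm22956 (1.60), Gm28370 (1.26), 4933434E20Rik (1.08), Gm36989 (1.05), Gm29773 (1.05), the olfactory receptor symbol Or4a78 (0.95) and Rps16-ps2 (1.11), whose sequence is identical to that of Rps16, at 0.74 without passing the test (limma-trend, Benjamini-Hochberg adjusted p = 0.0601).

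**Figure D1:**
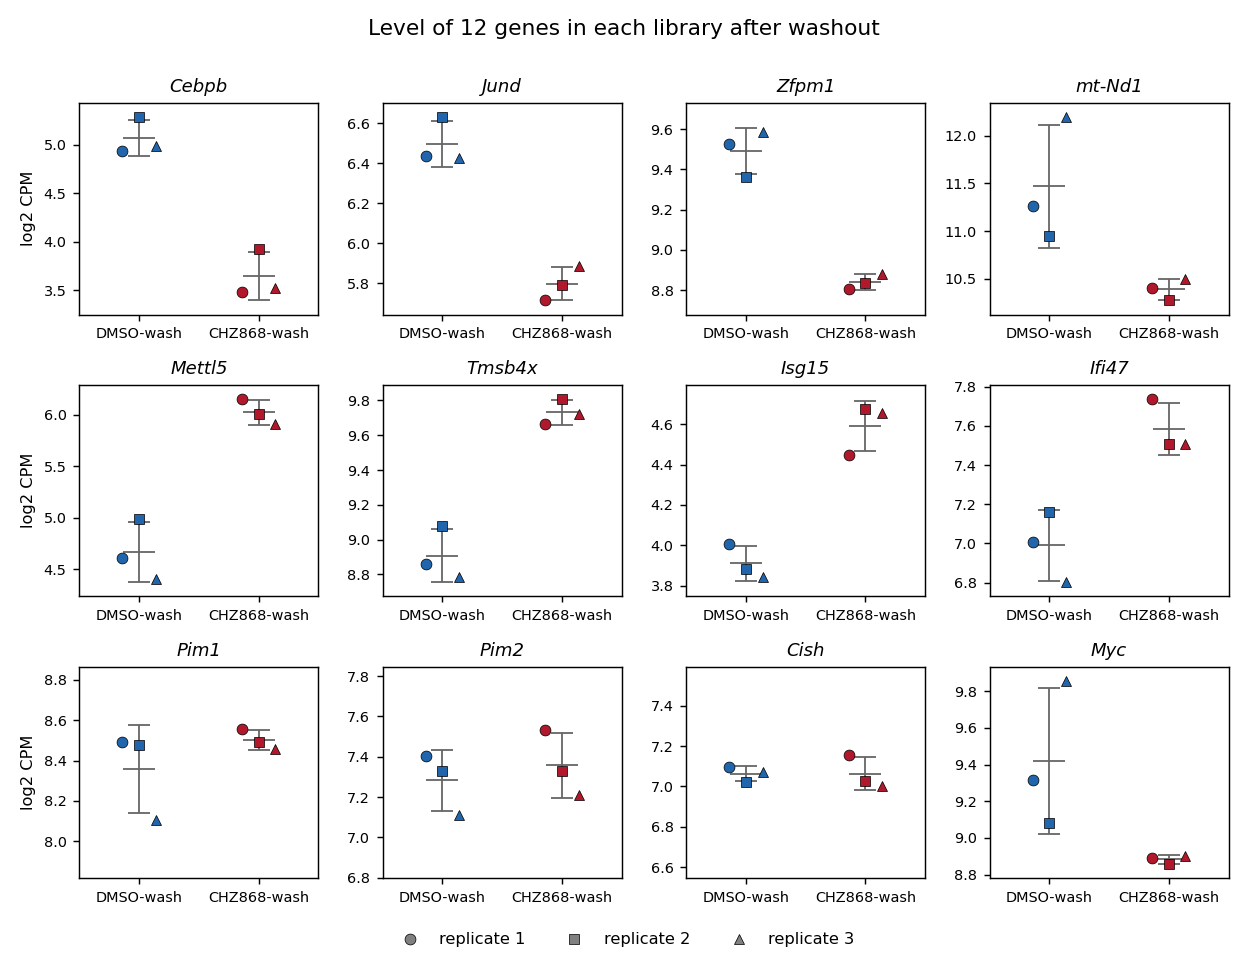
Level of 12 genes in each washout library, in log2 CPM on the vertical axis, with the group on the horizontal axis, 1 symbol per library, and lines at the group mean ± SD of 3 libraries. Cebpb, Jund, Zfpm1, mt-Nd1, Mettl5, Tmsb4x, Isg15 and Ifi47 are separate between the groups and past the test, Myc is separate but not past it (DMSO-wash libraries at 9.31, 9.08 and 9.86 log2 CPM), and Pim1, Pim2 and Cish overlap.

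STAT5 targets and the genes the study names did not pass the test in either direction. Of 24 STAT5 targets 20 were listed, with a median difference of -0.04 beside 0.01 for all genes. In limma-trend 0 of them were called, beside 4.02% of all genes. The groups were separate for 1 gene on the higher and 3 on the lower side, beside 14.9% and 16.1% of all genes. Leaving out DMSO-wash replicate 3 gave 2 falls among the STAT5 targets and 0 rises, beside 5.87% and 6.68% of all genes. Cish, a feedback inhibitor of STAT5 signaling, stood at 7.06 ± 0.08 log2 CPM in CHZ868-wash and 7.06 ± 0.04 log2 CPM in DMSO-wash libraries (mean ± SD, n = 3), and the groups overlapped. The feedback inhibitors Socs1, Socs2 and Socs3 differed by -0.05, -0.05 and -0.08, and the survival genes Bcl2l1, Bcl2 and Mcl1 by -0.05, 0.10 and 0.09. Oncostatin M (Osm) was 0.33 higher with overlapping groups, and the growth arrest gene Gadd45g 0.63 lower with separate groups (limma-trend, Benjamini-Hochberg adjusted p = 0.297 and 0.176). Myc, also on this list, was lower and its closest member to the threshold (limma-trend, Benjamini-Hochberg adjusted p = 0.078). It passed without DMSO-wash replicate 2 or 3, as described below.

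Pim1, a serine/threonine kinase induced by STAT5, was 8.56, 8.49 and 8.46 log2 CPM in CHZ868-wash and 8.49, 8.47 and 8.10 log2 CPM in DMSO-wash libraries. DMSO-wash replicate 3 was the lowest library, and without it the difference of 0.14 ± 0.11 (SE; limma-trend, Benjamini-Hochberg adjusted p = 0.441) was 0.02. Serpina3g, a protease inhibitor, was the closest to the threshold of the 7 genes the study names. It stood at 8.11, 8.05 and 8.10 log2 CPM in CHZ868-wash and 7.86, 8.01 and 7.87 log2 CPM in DMSO-wash libraries. The groups did not overlap, which 31.0% of all genes share, and the difference was 0.17 ± 0.08 (SE; limma-trend, Benjamini-Hochberg adjusted p = 0.213). Pim2, Id1, Tgm2, Spp1 and Actg1 completed this list, with differences of 0.07, 0.02, -0.01, -0.01 and 0.10 that were each smaller than their SEs or close to them (0.11, 0.12, 0.09, 0.14 and 0.09).

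Mouse JAK kinases, STAT factors and phosphatases, 20 of 20 listed, gave 0 calls, beside 4.02% of all genes (limma-trend; median -0.07). The groups were separate for 3 higher and 5 lower members (14.9% and 16.1% of all genes), and 2 rose and 1 fell without DMSO-wash replicate 3 (6.68% and 5.87% of all genes). The mutant kinase is made from a human cDNA, which has no symbol of its own in the table, and whether its reads count toward the mouse gene was not tested. The mouse gene Jak2 stood at 7.24, 7.23 and 7.21 log2 CPM in CHZ868-wash and 7.15, 6.95 and 7.24 log2 CPM in DMSO-wash libraries, which overlap. Its difference was 0.11 ± 0.09 (SE; limma-trend, Benjamini-Hochberg adjusted p = 0.476). Stat5a was 0.21 lower and Ptpn6, the phosphatase SHP-1, 0.31 lower, each with separate groups (limma-trend, Benjamini-Hochberg adjusted p = 0.177 and 0.0944). Ptpn6 passed without DMSO-wash replicate 2, at -0.38. Of 20 cytokine receptor chains 11 were listed, 9 of them lower, with a median of -0.12 and 0 called, beside 4.02% of all genes. Groups were separate for 0 higher and 1 lower member, beside 14.9% and 16.1% of all genes. The median was -0.08 without DMSO-wash replicate 3 and -0.05 when corrected for GC content and transcript length. Csf2rb, the common beta chain of the interleukin-3 receptor, was at -0.09.

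Interferon response genes leaned higher. Of 40 members 36 were listed, 27 of them higher and 9 lower, with a median difference of 0.20. There were 3 rises and no falls past the test (8.33% of the list, beside 1.96% of all genes called higher). Isg15, the ubiquitin-like modifier, was 4.45, 4.67 and 4.65 log2 CPM in CHZ868-wash and 4.01, 3.88 and 3.84 log2 CPM in DMSO-wash libraries. No library crossed between its groups, at a difference of 0.68 ± 0.13 (SE; limma-trend, Benjamini-Hochberg adjusted p = 0.0331). The immunity-related GTPases Ifi47 and Iigp1 rose by 0.59 and 0.38 (limma-trend, Benjamini-Hochberg adjusted p = 0.0316 and 0.0412). Corrected for GC content and transcript length, none of the 3 passed, and Iigp1 was 0.23 (limma-trend, Benjamini-Hochberg adjusted p = 0.125). Irf1, a transcription factor induced by interferon, overlapped at 0.03, and the RNA sensor Ifih1 was the lowest member at -0.43 (limma-trend, Benjamini-Hochberg adjusted p = 0.343). The list's median stayed between 0.13 and 0.22 with each library left out, and 10 members were higher and 0 lower past the test without DMSO-wash replicate 3, where 6.68% of all genes were called higher.

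MHC class I antigen presentation did not share that lean. Of 21 members 19 were listed, with a median of -0.02, and of -0.10 without DMSO-wash replicate 3. The 1 call was the fall of the peptide-loading protein Pdia3 by 0.42 (5.26% of the list, beside 2.07% of all genes called lower). H2-D1, a classical class I heavy chain, was 0.58 higher while H2-K1, another, was 0.40 lower, both with separate groups (limma-trend, Benjamini-Hochberg adjusted p = 0.0935 and 0.0715). H2-D1 stood at 8.51, 8.49 and 8.47 log2 CPM in CHZ868-wash and 7.92, 8.39 and 7.42 log2 CPM in DMSO-wash libraries, so its difference was 0.34 without DMSO-wash replicate 3. In that fit H2-D1 and H2-K1 (-0.45) both passed (limma-trend, Benjamini-Hochberg adjusted p = 0.0392 and 0.0103), and the list gave 1 rise and 4 falls (6.68% and 5.87% of all genes). H2-D1 also passed without DMSO-wash replicate 2, at 0.82. B2m, the light chain, was 0.38 lower without passing the test, and its difference ranged from -0.21 without DMSO-wash replicate 3 (limma-trend, Benjamini-Hochberg adjusted p = 0.103) to -0.52 without DMSO-wash replicate 2, where it passed.

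Transcripts of the mitochondrial genome were the list with the largest median, -0.93, and all 13 listed of 15 members were lower in CHZ868-wash cells, 9 of them with separate groups (16.1% of all genes were separate and lower). Past the test were the ribosomal RNAs mt-Rnr2 (-1.25) and mt-Rnr1 (-0.93), the complex I subunit mt-Nd1 (-1.08) and the cytochrome oxidase subunit mt-Co2 (-0.85). Levels of mt-Nd1 were 10.40, 10.27 and 10.49 log2 CPM in CHZ868-wash and 11.26, 10.95 and 12.20 log2 CPM in DMSO-wash libraries. DMSO-wash replicate 3 was the highest library, but the other DMSO-wash libraries also lay above all CHZ868-wash libraries. Its difference was -1.08 ± 0.25 (SE; limma-trend, Benjamini-Hochberg adjusted p = 0.0427), and -0.72 without that library. The list's median without DMSO-wash replicate 3 was -0.71, with 8 members lower past the test, against 4 with all libraries (5.87% and 2.07% of all genes). The largest and smallest members, mt-Atp8 at -2.02 and mt-Co3 at -0.42, did not pass, though mt-Atp8 did without DMSO-wash replicate 2 and was -1.22 without CHZ868-wash replicate 1. The share of mitochondrial reads and the position of DMSO-wash replicate 3 move with this list, and their part in it was not tested.

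Nuclear genes of oxidative phosphorylation had a median of 0.15, opposite in sign, with 52 of 74 listed members higher (74 of 75 members listed). In limma-trend 0 of them were called, beside 4.02% of all genes. Their differences ran from Atp5po at -0.58 to Ndufb3 at 0.90. The groups were separate for 17 higher and 5 lower members, beside 14.9% and 16.1% of all genes. Leaving out DMSO-wash replicate 3 gave a median of 0.02 with 7 rises and 2 falls, beside 6.68% and 5.87% of all genes. Ndufb3 passed in that fit (0.73) and without DMSO-wash replicate 2 (1.05). For DMSO-wash replicate 3 the median deviation from the 6-library mean was -0.24 log2 over these genes, against -0.04 and 0.09 in the other DMSO-wash libraries and -0.11, 0.14 and 0.13 in the CHZ868-wash libraries.

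Cytosolic ribosomal protein genes moved in both directions. Of 79 members 77 were listed, 58 higher and 19 lower, with a median of 0.19. The large-subunit and stalk genes Rplp1 (0.88) and Rpl9 (0.82) and the small-subunit genes Rps13 (0.74), Rps27 (0.64) and Rps27a (0.52) rose, and the 3 falls included Rps2 (-0.59) and Rpl28 (-0.38). These 8 calls, in both directions, were 10.4% of the list, beside 4.02% of all genes (1.96% higher and 2.07% lower). Corrected for GC content and transcript length, 0 members passed, beside 0.172% of all genes. Rpl9 was 9.69, 9.80 and 9.76 log2 CPM in CHZ868-wash and 8.98, 9.30 and 8.51 log2 CPM in DMSO-wash libraries. Rps2 was 8.19, 8.26 and 8.33 log2 CPM in CHZ868-wash and 8.85, 8.62 and 9.07 log2 CPM in DMSO-wash libraries. In opposite directions, DMSO-wash replicate 3 was the farthest library from the CHZ868-wash group for both genes. Without it the list's median was 0.04, with 9 members higher and 7 lower past the test (6.68% and 5.87% of all genes were), and its part was not tested. Rps2 has 27 near-identical copies in the annotation and Rplp1 has 3.

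Small nucleolar RNA host transcripts, whose introns carry guides of ribosomal RNA modification, were higher in all 15 listed of 18 members, with a median of 0.40. Only Zfas1 passed the test (6.67% of the list, beside 1.96% of all genes called higher). It stood at 5.87, 6.43 and 6.39 log2 CPM in CHZ868-wash and 5.38, 5.71 and 5.21 log2 CPM in DMSO-wash libraries. Its groups were separate, at a difference of 0.80 ± 0.17 (SE; limma-trend, Benjamini-Hochberg adjusted p = 0.0375). Gas5, another host, overlapped at 0.27. The median over these transcripts was 0.29, with 3 rises (6.68% of all genes), without DMSO-wash replicate 3, the library with the lowest median deviation (-0.44 log2).

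Myc, the growth regulator, is also on the STAT5 target list. Its level was 8.89, 8.86 and 8.90 log2 CPM in CHZ868-wash and 9.31, 9.08 and 9.86 log2 CPM in DMSO-wash libraries. The groups were separate and the CHZ868-wash values lay close together (SD 0.02), but the DMSO-wash values were spread (SD 0.40). The difference of -0.53 ± 0.16 (SE) did not pass (limma-trend, Benjamini-Hochberg adjusted p = 0.078). Myc did pass without DMSO-wash replicate 2, at -0.70, and without DMSO-wash replicate 3, at -0.31 (limma-trend, Benjamini-Hochberg adjusted p = 0.0104 and 0.0129). MYC target and ribosome biogenesis genes, all 40 listed, had a median of 0.00, with 20 higher and 20 lower. The 2 calls were falls, of the spermidine synthase gene Srm (-0.36) and of Bop1 (-0.36), which acts in 60S subunit assembly (5.00% of the list, beside 2.07% of all genes called lower). They were -0.24 and -0.22, and not past the threshold, when corrected for GC content and transcript length. Aminoacyl-tRNA synthetases, all 20 listed, had a median of -0.10 and 0 calls in limma-trend, beside 4.02% of all genes. Of these synthetases 7 were separate and lower and 0 separate and higher, beside 16.1% and 14.9% of all genes. Leaving out DMSO-wash replicate 3 gave 1 rise and 6 falls among the MYC targets and 3 falls among the synthetases, where 6.68% of all genes rose and 5.87% fell.

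DNA replication genes leaned lower. All 45 members were listed, 33 lower and 12 higher, with a median of -0.18 and 3 falls (6.67% of the list, beside 2.07% of all genes called lower): Pold2 (-0.50), a subunit of DNA polymerase delta, Pola2 (-0.47), a subunit of the primase complex, and the licensing factor Cdt1 (-0.42). Pold2 was 5.44, 5.52 and 5.57 log2 CPM in CHZ868-wash and 6.07, 5.99 and 5.99 log2 CPM in DMSO-wash libraries. Within each group its values lay close together and the groups were far apart, at -0.50 ± 0.09 (SE; limma-trend, Benjamini-Hochberg adjusted p = 0.0323). Without DMSO-wash replicate 3 the list's median was -0.19, with 10 falls and 0 rises in limma-trend, where 5.87% of all genes were called lower.

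The 45 mitosis genes, all listed, had a median of -0.03. The 1 call was the mitotic kinase Plk1 at -0.46 (2.22% of the list, beside 2.07% of all genes called lower). Cdk1 was 0.46 higher without passing (limma-trend, Benjamini-Hochberg adjusted p = 0.108). Cdk1 passed without DMSO-wash replicate 2, at 0.63, and not without DMSO-wash replicate 3, at 0.26 (limma-trend, Benjamini-Hochberg adjusted p = 0.0677). In the latter fit 4 mitosis genes rose and 5 fell, beside 6.68% and 5.87% of all genes. Among D cyclins, G1 kinases and their inhibitors (16 of 19 listed, median 0.00), the only call was a rise (6.25% of the list, beside 1.96% of all genes called higher). It was that of Cdkn2d, the CDK4/6 inhibitor p19INK4d. Its level was 3.93 ± 0.11 log2 CPM in CHZ868-wash and 3.09 ± 0.14 log2 CPM in DMSO-wash libraries (mean ± SD, n = 3). The groups did not overlap, at a difference of 0.84 ± 0.16 (SE; limma-trend, Benjamini-Hochberg adjusted p = 0.0323). The cyclin genes Ccnd2 and Ccnd3 differed by 0.19 and -0.22 with separate groups and no call, and Ccnd3 passed without DMSO-wash replicate 3 (-0.24). In that fit this list gave 1 rise and 3 falls, beside 6.68% and 5.87% of all genes. Of 27 p53 targets 23 were listed, with a median of -0.02, the rise of Trp53inp1 (0.45), a stress protein, and the fall of Gtse1 (-0.40), a regulator of p53 in G2. These calls were 8.7% of the list, beside 4.02% of all genes. The fit without DMSO-wash replicate 3 gave 1 rise and 2 falls (6.68% and 5.87% of all genes). Cdkn1a, which encodes p21, overlapped at -0.25, and was -0.14 without DMSO-wash replicate 3. Within the BCL2 family (12 of 20 listed, median 0.09), the pore-forming death gene Bak1 fell by 0.68 and was -0.50 without DMSO-wash replicate 3. This call was 8.33% of the list, beside 2.07% of all genes called lower. Without that library 2 members rose and 1 fell, beside 6.68% and 5.87% of all genes. The BH3-only gene Bcl2l11, which encodes BIM, was 0.22 higher without passing.

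In the TNF and NF-kB response list 16 of 19 listed genes were lower (26 members; median -0.20), with 3 falls and 0 rises in limma-trend (15.8% of the list, beside 2.07% of all genes called lower). Without DMSO-wash replicate 3 there were 4 falls, beside 5.87% of all genes. With each library left out the list's median ran from -0.24 to -0.13. Corrected for GC content and transcript length, the median was -0.13 and 0 members passed, beside 0.172% of all genes. Tnip1, an inhibitor of NF-kB signaling, was 6.46, 6.40 and 6.40 log2 CPM in CHZ868-wash and 6.95, 6.96 and 7.12 log2 CPM in DMSO-wash libraries. All 3 DMSO-wash values lay above, at -0.59 ± 0.09 (SE; limma-trend, Benjamini-Hochberg adjusted p = 0.0202). The inhibitor gene Nfkbib (-0.66) and the subunit gene Rela (-0.49) fell as well, whereas Nfkbia, the classical feedback inhibitor, overlapped at -0.14. Nfkbia was -0.24 without DMSO-wash replicate 3 and did not pass (limma-trend, Benjamini-Hochberg adjusted p = 0.0782). AP-1 and immediate early genes (19 of 26 listed, median -0.07) gave the fall of Jund alone (5.26% of the list, beside 2.07% of all genes called lower). The list's median was -0.13 without DMSO-wash replicate 3, with 2 falls, beside 5.87% of all genes. Corrected for GC content and transcript length, the median was 0.06. ERK pathway feedback genes (15 of 18 listed, median -0.04) gave 0 calls in limma-trend, beside 4.02% of all genes, with Spry4 at 0.61 and Dusp6 at 0.10. Of these ERK genes 2 were separate and higher and 4 separate and lower, beside 14.9% and 16.1% of all genes. They gave 1 rise and 1 fall without DMSO-wash replicate 3, beside 6.68% and 5.87% of all genes. FOXO factors and targets (12 of 22 listed, median 0.09) also gave 0 calls, beside 4.02% of all genes. In this list 2 members were separate and higher and 0 separate and lower, beside 14.9% and 16.1% of all genes. Ccng2 was the closest to the threshold at 0.36 (limma-trend, Benjamini-Hochberg adjusted p = 0.0517). Ccng2 passed without DMSO-wash replicate 2 or 3, at 0.38 and 0.32. Of 33 inflammatory and interleukin genes 14 were listed, with a median of 0.01. The 1 rise was that of the chemokine receptor Ccr2 (0.44), 7.14% of the list beside 1.96% of all genes called higher.

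With all 6 libraries the calls on stress pathway lists were falls. The ATF4 stress response and serine synthesis list (27 of 34 listed, median -0.05) held the fall of Cebpb, with Atf4 itself at 0.10 and asparagine synthetase Asns at -0.10. Unfolded protein response genes (24 of 25 listed) were lower in 19 cases, with a median of -0.12 and falls of Herpud1 (-0.45), which acts in degradation from the endoplasmic reticulum, and Pdia3. Herpud1 was 6.33, 6.33 and 6.48 log2 CPM in CHZ868-wash and 6.81, 6.77 and 6.93 log2 CPM in DMSO-wash libraries, with no overlap. Chaperones and heat shock genes (19 of 24 listed, median 0.03) held falls of the co-chaperone Stip1 (-0.54) and of Hsf1 (-0.48), the heat shock transcription factor. The called shares of the 3 lists were 3.70%, 8.33% and 10.5%, beside 4.02% of all genes. Leaving out DMSO-wash replicate 3 gave 6 falls in the ATF4 list, 6 among unfolded protein response genes, and 3 rises and 2 falls among chaperones, while the shares of all genes in that fit were 6.68% higher and 5.87% lower.

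Metabolic lists lay near or slightly above the median of all genes. Cholesterol and fatty acid synthesis genes (32 of 35 listed, median 0.00) held the fall of the sterol enzyme Nsdhl (-0.67) and the rise of the sterol carrier Stard4 (0.52). These calls were 6.25% of the list, beside 4.02% of all genes. Glycolysis genes (22 of 25 listed, median 0.13) held the rise of Pgk1 (0.54), 4.55% of the list beside 1.96% of all genes called higher. The glucose transporter Slc2a1 overlapped at 0.13. The glycolysis median was 0.01 without DMSO-wash replicate 3, with 3 rises and 2 falls, while the cholesterol list then gave 1 rise and 5 falls (6.68% and 5.87% of all genes). Hypoxia response genes (17 of 20 listed, median 0.13) held rises of Higd1a (0.75), a mitochondrial protein induced by hypoxia, and Ankrd37 (0.66), 11.8% of the list beside 1.96% of all genes called higher. There were 5 rises without DMSO-wash replicate 3, at a median of 0.14, beside 6.68% of all genes.

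Heme synthesis, globin and erythroid genes (21 of 33 listed, median -0.08) were split. The transcription factor Klf1 fell by 0.57 and its list partner Zfpm1 by 0.65, while the transferrin receptor Tfrc rose by 0.44 and the alpha-globin gene Hba-a1 by 0.78. Hba-a1 was 8.18, 7.75 and 7.78 log2 CPM in CHZ868-wash and 7.01, 7.50 and 6.85 log2 CPM in DMSO-wash libraries, without overlap. Reads of Hba-a1 may include those of Hba-a2, from which it differs little (99.8% identity). Actin and actin-binding proteins (32 of 38 listed, median -0.12) held falls of Pfn1 (-0.60), which delivers actin monomers, the crosslinker Actn4 (-0.45) and the tropomyosin Tpm3 (-0.41) beside the rise of Tmsb4x. Autophagy and lysosome genes (37 of 40 listed, median -0.04) held 3 falls, among them the lysosomal enzymes Ctsz (-0.53) and Ctsa (-0.43), and the rise of the proton pump subunit Atp6v1h (0.42; 0.26 and no call when corrected for GC content and transcript length). Leaving out DMSO-wash replicate 3 gave 2 rises and 4 falls in the heme and erythroid list, 3 and 8 among actin genes, and 1 and 5 among lysosome genes, beside 6.68% and 5.87% of all genes. With all 6 libraries the called shares of these lists were 19.0%, 12.5% and 10.8%, beside 4.02% of all genes.

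**Figure D2:**
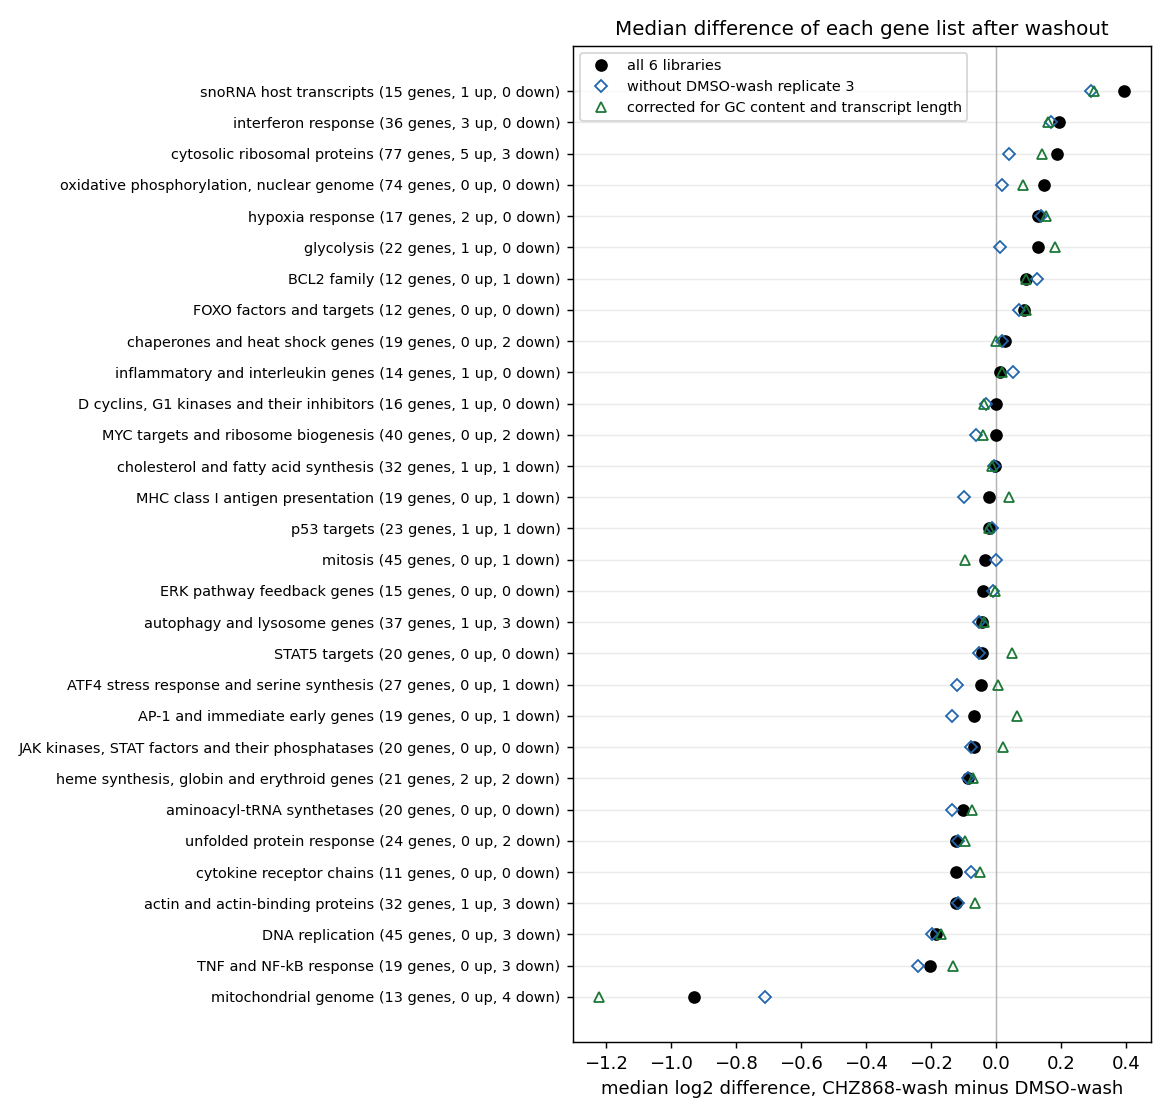
Median log2 difference (CHZ868-wash minus DMSO-wash) of 30 gene lists on the horizontal axis, with the lists on the vertical axis and their listed genes and calls in brackets, for all 6 libraries, without DMSO-wash replicate 3, and after a correction for GC content and transcript length. The mitochondrial genome lies lowest under each setting (-0.93, -0.71 and -1.22), and snoRNA host transcripts lie highest (0.40, 0.29 and 0.30).

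The cells were checked against markers. All 8 leukocyte and interleukin-3 receptor markers were listed, summing to 2666, 2660 and 2686 CPM in CHZ868-wash and 2773, 2723 and 2799 CPM in DMSO-wash libraries, with Csf2rb the most abundant. Of 12 pro-B cell markers only Cd79a and Cd79b were listed, at a sum of 27.1, 27.6 and 26.5 CPM in CHZ868-wash and 30.8, 32.2 and 25.6 CPM in DMSO-wash libraries. The pro-B genes Pax5, Ebf1, Vpreb1 and Rag1 were not among the genes listed after the authors' filter on low expression.

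Other cell types had few listed markers. Erythroid markers (3 of 9, Hba-a1 the most abundant) summed to 331, 259 and 266 CPM in CHZ868-wash and 189, 240 and 179 CPM in DMSO-wash libraries. Every CHZ868-wash sum was thus above every DMSO-wash sum. The sums follow Hba-a1, as the other 2 listed markers were lower, among them Klf1 (-0.57), and the part of these cells' levels in other results was not tested. Macrophage markers (2 of 8, Cd68 the most abundant) summed to 32.4, 23.3 and 25.8 CPM in CHZ868-wash and 28.2, 28.5 and 40.9 CPM in DMSO-wash libraries, which overlap. Among the neutrophil precursor markers Prtn3 was listed (1 of 8; 62.4, 67.0 and 64.4 CPM in CHZ868-wash, 49.6, 62.2 and 40.8 CPM in DMSO-wash libraries), and among the mast cell and basophil markers Gata2 (1 of 8; 617, 615 and 666 CPM in CHZ868-wash, 651, 679 and 712 CPM in DMSO-wash libraries). Of the T cell markers only Lck was listed (1 of 9), at 3.14 to 5.99 CPM. Not one of the 6 fibroblast markers was listed.

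The called genes differed in base composition. The longest annotated transcript had a median GC content of 42.0% for the 222 higher genes, 56.6% for the 235 lower genes and 49.5% for all genes with a match (97.2% of the table). Lengths differed less, with medians of 3358, 2623 and 3167 bases. Of the 2756 genes with the lowest GC content (28.1% to 44.7%), 155 were called higher and 3 lower, and of the 2756 with the highest (54.2% to 82.9%), 8 higher and 163 lower. Cebpb had a GC content of 67.2%, Jund 67.1%, Zfpm1 66.8%, Mettl5 42.1% and Tmsb4x 47.5%.

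The libraries themselves differed along GC content, and not by group alone. Over the genes of lowest GC content, the median deviation from the 6-library mean was 0.064, 0.062 and 0.052 log2 in CHZ868-wash and -0.082, -0.140 and 0.064 log2 in DMSO-wash libraries. Over those of highest GC content it was -0.082, -0.044 and -0.036 log2 in CHZ868-wash and 0.076, 0.125 and -0.035 log2 in DMSO-wash libraries. DMSO-wash replicate 3 thus lay with the CHZ868-wash libraries, and DMSO-wash replicates 1 and 2 on the other side. After each library was corrected for smooth trends on GC content and transcript length, a step chosen after seeing the data, 9 genes (0.0815%) were higher and 10 (0.0906%) lower (19 of 11037, 0.172%; limma-trend, 2544 at an unadjusted p under 0.05). The same corrected fit gave 370 calls when DMSO-wash replicate 3 was left out.

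Of the 19 genes called after the correction, 17 were among the 457. They included Cebpb at -1.12, Mettl5 at 1.24, Gm33051 at 1.31, Tmsb4x at 0.72, Gm47009 at -1.14 and the mitochondrial transcripts mt-Rnr2 at -1.51, mt-Rnr1 at -1.22, mt-Nd1 at -1.34 and mt-Co2 at -1.11. Those no longer past the threshold included Zfpm1 (-0.32), Jund (-0.39), Tnip1 (-0.47), Isg15 (0.64), Ifi47 (0.52) and Pold2 (-0.39), with limma-trend and Benjamini-Hochberg adjusted p of 0.0995, 0.0655, 0.0604, 0.0589, 0.0624 and 0.0775. The corrected medians of the interferon, DNA replication and ribosomal protein lists were 0.16, -0.17 and 0.14. Those of the TNF and NF-kB, actin, nuclear oxidative phosphorylation and cytokine receptor lists were -0.13, -0.06, 0.08 and -0.05. Uncorrected, these 4 were -0.20, -0.12, 0.15 and -0.12. Other medians grew, among them mitochondrial genome (-0.93 to -1.22), glycolysis (0.13 to 0.18) and mitosis (-0.03 to -0.09). The part of base composition in the calls that did not return was not tested.

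**Figure D3:**
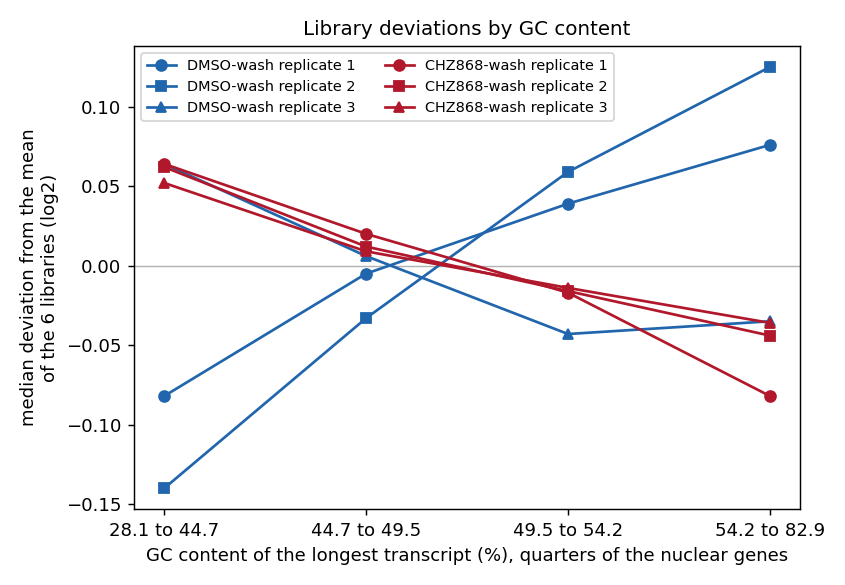
Median deviation of each library from the mean of the 6 washout libraries, in log2 on the vertical axis, over 4 sets of nuclear genes of nearly equal size by GC content of the longest transcript, in percent on the horizontal axis, with 1 line per library. The CHZ868-wash libraries fall from 0.064, 0.062 and 0.052 to -0.082, -0.044 and -0.036, DMSO-wash replicates 1 and 2 climb from -0.082 and -0.140 to 0.076 and 0.125, and DMSO-wash replicate 3 runs from 0.064 to -0.035.

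Side by side with 6 h of continuous CHZ868, whose table was normalized separately, the genes named next lay near 0 after the washout. Not all STAT5 targets did so, as that list ran from Gadd45g at -0.63 to Osm at 0.33 after the washout, and Myc was also lower. Pim1 differed by -3.20 in CHZ868-treated against DMSO-treated cells and by 0.14 after the washout. Socs1 differed by -5.20 and -0.05, Pim2 by -2.56 and 0.07, Serpina3g by -2.32 and 0.17, Id1 by -2.24 and 0.02, Socs3 by -1.47 and -0.08, and Cish by -1.39 and 0.00. The list's median was -1.18 in the treated and -0.04 in the washout table, where 53.2% and 4.02% of all genes were called. Interferon response genes had medians of -2.06 and 0.20, with Iigp1 at -4.59 and 0.38, Isg15 at -3.50 and 0.68, and Ifi47 at -2.97 and 0.59. The mitochondrial genome had medians of 2.36 and -0.93, with mt-Nd1 at 2.36 and -1.08, and snoRNA host transcripts of -0.65 and 0.40. DNA replication stood at 0.23 and -0.18. Cebpb was lower in both tables (-0.56 and -1.42). Klf1 was 1.16 higher in the treated and 0.57 lower in the washout table, and Zfpm1 0.80 higher and 0.65 lower. The differences between the tables were not tested.

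After ruxolitinib washout, set against its own DMSO-wash libraries, 3 of 13085 genes were called (0.0229%), all lower. Of the genes the study names, Spp1, which encodes osteopontin, was among the 3. Pim1 differed there by 0.10, Pim2 by 0.35, Id1 by 0.14, Tgm2 by 0.16, Serpina3g by 0.17 and Cish by 0.13. The corresponding CHZ868 washout differences were 0.14, 0.07, 0.02, -0.01, 0.17 and 0.00. Spp1 was -0.50 after ruxolitinib washout and -0.01 after CHZ868 washout. List medians after ruxolitinib washout were 0.07 for STAT5 targets, 0.06 for the interferon response, -0.04 for the mitochondrial genome, 0.04 for snoRNA hosts and 0.03 for DNA replication. Over the 10097 genes matched between the 2 washout tables, 247 (2.45%) had separate groups in both with opposite signs. These differences between experiments were not tested either.

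Promoters were searched for TTCNNNGAA, the palindromic core of a STAT site, which reads the same on both strands, in the window from 250 bases before to 50 bases after each gene start (RefSeq GRCm38.p6), taking the first listed start of a named or tabled gene. It occurred in 2726 of 32851 promoters (8.30%), in 576 of the 8271 table genes with a promoter sequence (6.96%), in 8 of 161 genes called higher (4.97%), in 15 of 159 called lower (9.43%) and in 2 of 13 STAT5 targets (15.4%), Cish and Socs3. The 4 promoters printed here belong to genes that were lower after 6 h of continuous CHZ868 and not called after the washout, with the motif in capitals. The Cish window (chr9:107296409-107296708, plus strand) holds the motif 2 times, beside differences of -1.39 and 0.00. The windows of Socs3 (chr11:117969317-117969616, minus strand; -1.47 and -0.08), Serpina3g (chr12:104235897-104236196, plus strand; -2.32 and 0.17) and Irf1 (chr11:53769764-53770063, plus strand; -2.40 and 0.03) hold it 1 time each. A match describes the sequence and is not evidence of binding.
Cish: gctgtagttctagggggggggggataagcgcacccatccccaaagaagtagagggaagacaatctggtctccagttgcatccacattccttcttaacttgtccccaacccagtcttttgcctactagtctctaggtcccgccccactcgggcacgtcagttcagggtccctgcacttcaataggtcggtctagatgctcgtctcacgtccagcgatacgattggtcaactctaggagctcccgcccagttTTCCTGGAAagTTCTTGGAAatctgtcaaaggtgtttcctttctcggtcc
Socs3: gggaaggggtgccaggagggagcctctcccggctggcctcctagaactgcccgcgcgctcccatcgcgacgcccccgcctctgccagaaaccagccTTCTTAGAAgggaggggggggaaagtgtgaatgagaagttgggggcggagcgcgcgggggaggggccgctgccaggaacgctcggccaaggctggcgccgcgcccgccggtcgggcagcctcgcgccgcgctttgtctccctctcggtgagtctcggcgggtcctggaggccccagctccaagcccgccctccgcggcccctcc
Serpina3g: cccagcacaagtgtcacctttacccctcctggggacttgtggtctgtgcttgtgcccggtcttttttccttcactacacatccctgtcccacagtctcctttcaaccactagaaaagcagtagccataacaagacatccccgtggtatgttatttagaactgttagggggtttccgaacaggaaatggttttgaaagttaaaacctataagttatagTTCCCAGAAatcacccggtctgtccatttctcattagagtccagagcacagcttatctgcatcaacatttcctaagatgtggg
Irf1: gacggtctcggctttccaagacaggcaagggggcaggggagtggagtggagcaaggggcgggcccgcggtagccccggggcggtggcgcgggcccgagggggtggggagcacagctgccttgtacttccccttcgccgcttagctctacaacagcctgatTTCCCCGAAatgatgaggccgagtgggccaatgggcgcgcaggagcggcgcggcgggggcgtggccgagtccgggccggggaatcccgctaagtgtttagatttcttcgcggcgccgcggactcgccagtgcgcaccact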

How the data were processed

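The authors made RNA-seq libraries from Ba/F3 JAK2-V617F cells and deposited log2 CPM after TMM normalization, with a filter on genes of low expression. The sources differ on how the reads were assigned: the study's methods name kallisto with GRCm38 transcripts, and the submitters' processing notes name STAR 2.7.3a, GRCm39 and edgeR 4.0.16. The deposited log2 values correspond to CPM plus a constant of 0.222, and removing it gave whole reads (within 0.1 read) for 100.0% of low values, hence the depths. They cover listed genes only.

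limma-trend (limma 3.58.1, R 4.3.3) compared the 3 CHZ868-wash with the 3 DMSO-wash libraries, without a block, with a two-sided test and Benjamini-Hochberg adjustment over 11355 genes, called at an adjusted p under 0.05. An exact permutation of 3 against 3 libraries cannot go below 0.1. The CHZ868-treated and ruxo-wash tables were fitted alone, since tables were normalized separately. Python 3.11.15, numpy 2.4.6, pandas 2.3.3 and matplotlib 3.10.9 did the rest, and the fit was tested on simulated data.

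Named genes are those the study names, the 15 largest rises and falls with separate groups and a mean of at least 1 log2 CPM, called and defining members of each list (some are not named), the 10 largest calls with the same sign in all 6 fits that leave out 1 library, and Jak2. The members and lists were chosen with earlier results of these data known, so lists have counts and medians only. Of 11355 symbols 97.2% matched the vM21 annotation, which gave GC content, length of the longest transcript and, with BLAST+ 2.17.0, near copies (at least 95% identity over 50%). Of 119 matched named genes 14 had a near copy, and 16 had exons overlapping another gene on the same strand and 41 on the other strand, so their reads may be shared. Alternatives were other variance models, weights, scalings, constants, filters and thresholds, a replicate block, leaving out each library, and, chosen after seeing the data, GC and length corrections.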

Additional observations from a re-analysis of the deposited data

Results flagged for a closer look

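For 12 named genes all libraries moved one way after CHZ868 washout and the other way after ruxolitinib washout, each against its own DMSO-wash libraries, with separate groups in both experiments. They were picked out of the 120 named genes for this pattern, which 247 of the 10097 genes matched between the tables share (2.45%). Of the 120 named genes, 77 were past the threshold after CHZ868 washout, and all 457 genes past it had separate groups there. The naming thus favored the pattern, and the 12 genes cannot be set against the share of all genes. Cebpb was -1.42 after CHZ868 washout and 0.11 after ruxolitinib washout, mt-Nd1 -1.08 and 0.032, Pfn1 -0.60 and 0.058, Rela -0.49 and 0.094, Actn4 -0.45 and 0.11, Gtse1 -0.40 and 0.094, B2m -0.38 and 0.064, and Ccnd3 -0.22 and 0.14 (log2 differences). Higher after CHZ868 washout and lower after ruxolitinib washout were Gm28370 at 1.26 and -0.24, S100a6 at 1.06 and -0.28, Hba-a1 at 0.78 and -0.21, and Ccr2 at 0.44 and -0.13. The difference was not tested for any of the 12 genes.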

How the results depend on the processing

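The 457 calls were 447 to 568 under other constants, filters on low values, scalings and the vooma, voom and robust variance models, and 174 with a log2 difference of at least 0.58 in size. limma-trend gave 0 calls at an adjusted p of 0.01, and limma without the mean-variance trend gave 0 (2767 and 2562 at an unadjusted p under 0.05). Leaving out each library gave 0 to 1426 calls. Weights per library gave 3251. They were estimated gene by gene, since the REML estimate did not converge, and the smallest, 0.231, fell on DMSO-wash replicate 3. Among corrections chosen after seeing the data, that for GC content gave 20, that for GC content and transcript length 19 (356 with the replicate block, 370 without DMSO-wash replicate 3), and that for length 611. The causes of these changes were not tested.

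With the replicate number as a block there were 539 calls, 370 of them among the 457. Whether libraries of equal number belong together is not given in the labels. Deviations of same-numbered libraries correlated at -0.0274, 0.0514 and -0.0537, and only replicate 2 correlated best with its own number. With 3 libraries per group, these values cannot settle whether the numbers pair the samples.

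Of 120 named genes, the 77 past the threshold changed sign under no alternative, and 10 of the 43 others did, all near 0. With each library left out, Pim2 ran from -0.014 to 0.148, Id1 from -0.092 to 0.119, Tgm2 from -0.089 to 0.037, Spp1 from -0.107 to 0.184, Cish from -0.048 to 0.029, Socs2 from -0.109 to 0.00062, Socs3 from -0.195 to 0.054, Bcl2l1 from -0.097 to 0.0025 and Atf4 from -0.015 to 0.183. Weights per library gave Pim2 -0.070 and Spp1 0.142. Quantile normalization gave Spp1 0.021 and Cish 0.030. The length correction gave Id1 -0.0056 and Cish 0.0026. The GC correction gave Tgm2 0.089, Cish 0.033, Socs1 0.085, Socs3 0.052 and Bcl2l1 0.032. The correction for both, with or without the block, gave Tgm2 0.109, Cish 0.067, Socs1 0.098, Socs3 0.063 and Bcl2l1 0.040. At these depths low genes such as mt-Atp8, with the fewest reads in CHZ868-wash replicate 1, carry the widest errors.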
